A study of Oryctolagus cuniculus with 20 samples.

Results

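Translation factors and aminoacyl-tRNA synthetases formed a group of 19 among the 23669 genes of the count table from rabbit tricuspid valves. They comprise 7 subunits of eIF3 (EIF3A, EIF3C, EIF3E, EIF3F, EIF3H, EIF3J and EIF3M), 2 subunits of eIF2 (EIF2S2 and EIF2S3), the cap-dependent initiation factors EIF4G1 and EIF4B with the inhibitor EIF4EBP2, the factors EIF5B and EIF6, the elongation factor kinase EEF2K, and the synthetases AARS, GARS, NARS and RARS. The genes were chosen by symbol from the study's list of genes that differed between treated and non-treated valves (symbols beginning with EIF or EEF, cytosolic or other synthetase symbols), with the identifier required to stand in the count table. EEF1B2 was left out. Since that list was made on these same valves, a difference from the non-treated valves is how a gene came to be here and not a finding. The comparisons are therefore given as descriptions, and the number of genes past the threshold of the fit across all genes is set beside the share of all genes that was.

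The valves came from adult female New Zealand White rabbits given drinking water alone (non-treated) or drinking water with serotonin at 80 mg/kg, pergolide at 0.5 mg/kg or dexfenfluramine at 20 mg/kg per day, for 16 weeks. The dexfenfluramine dose is that of the sample labels and the study's methods, and its results text states a lower one. Pergolide and dexfenfluramine are drugs that act on serotonin receptors, directly or by releasing serotonin, and both are known for valvular heart disease in patients. Each group held 5 valves, each from a separate rabbit, and total RNA of the whole valve was sequenced after depletion of ribosomal RNA. The drugs were given to intact animals, so that the RNA is that of a mixed tissue. In such bulk RNA, fewer cells of a type and less RNA per cell cannot be told apart.

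Protein synthesis starts when eIF2, loaded with GTP and the initiator methionyl-tRNA, joins the small ribosomal subunit together with eIF3, the largest initiation factor. The cap-binding complex eIF4F, made of the cap-binding protein eIF4E, the helicase eIF4A and the scaffold eIF4G, brings the mRNA, with eIF4B assisting the helicase. The 4E-binding proteins, of which EIF4EBP2 is one, hold eIF4E away from eIF4G. EIF5B then drives the joining of the large subunit, from which EIF6 must have been released. During elongation, eEF2 moves the ribosome along the mRNA and is switched off when EEF2K phosphorylates it. Aminoacyl-tRNA synthetases load each tRNA with its amino acid, alanine for AARS, glycine for GARS, asparagine for NARS and arginine for RARS. Heart valves contain interstitial cells that make the matrix, a covering of endothelium and, where the leaflets attach, heart muscle.

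Total counts were 3247091 to 5921025 reads per valve. The most abundant gene alone took 28.5% to 48.1% of the reads of the non-treated valves, 29.6% to 39.4% with serotonin, 31.2% to 35.7% with pergolide and 20.3% to 34.3% with dexfenfluramine. The TMM factors, by which edgeR corrects the library sizes for such differences in composition, moved with the groups, from 0.584 to 1.25 without treatment to 1.08 to 1.72 with dexfenfluramine. Levels are given in CPM, the reads of a gene scaled to this corrected library size, without division by gene length, so that they can be compared between valves but not between genes. Symbols came from the study's list of genes that differed with a treatment, so that a marker summed here had itself been listed and the unlisted markers of each cell type are missing. Of the valve interstitial markers, 7 of 11 had a symbol, and their summed level was 5503 to 7986 CPM in the non-treated valves, 6565 to 8369 with serotonin, 7751 to 11247 with pergolide and 8182 to 11976 with dexfenfluramine. Of the cardiomyocyte markers, 8 of 15 had a symbol, with sums of 48959 to 149934, 52926 to 103309, 47554 to 91537 and 12377 to 70582 CPM in the same order. TTN made up most of this sum, and single markers differed from it. TNNT2 had means of 3099, 2958, 643 and 449 CPM, and ACTC1 of 1724, 1383, 1717 and 1071 CPM. The sum of 2 of 9 endothelial markers was 135 to 322, 259 to 336, 117 to 216 and 170 to 264 CPM, that of 3 of 9 adipocyte markers was 21.9 to 70.0, 28.5 to 133, 55.6 to 176 and 3.24 to 100.2 CPM, and that of 2 of 9 macrophage markers was 6.18 to 23.7, 12.3 to 38.2, 13.7 to 47.7 and 23.2 to 34.8 CPM. None of these markers was at 0 throughout a group. The part of these cell types in the results was not tested.

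By value, the 19 genes split into 9 that were higher and 10 that were lower with pergolide than without treatment, and likewise with dexfenfluramine. Both comparisons use the same 5 non-treated valves, and 15 of the 19 genes had been listed for both drugs, so that their signs are not independent and nothing is read from their agreement. The largest differences upward were those of EIF6, 1.91-fold with pergolide and 1.99-fold with dexfenfluramine, and the largest downward with dexfenfluramine was that of EIF3J, at 0.53 times the non-treated level. Higher by value with each drug were EIF3E, EIF3F, EIF3H, EIF3M, EIF2S3, EIF6, AARS, GARS and RARS. Lower with each were EIF3A, EIF3C, EIF3J, EIF2S2, EIF4G1, EIF4B, EIF4EBP2, EIF5B, EEF2K and NARS. Genes of one group were found on both sides, 4 subunits of eIF3 higher and 3 lower (of which EIF3A and EIF3C change sign when surrogate variables are fitted), 1 subunit of eIF2 higher and 1 lower, and 3 synthetases higher and 1 lower, as the plot of the 19 differences shows. The median log2 difference of the 19 was -0.24 with pergolide, -0.23 with dexfenfluramine and -0.01 with serotonin, beside 0.02, 0.03 and 0.01 over the 8683 genes tested.

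**Figure D1:**
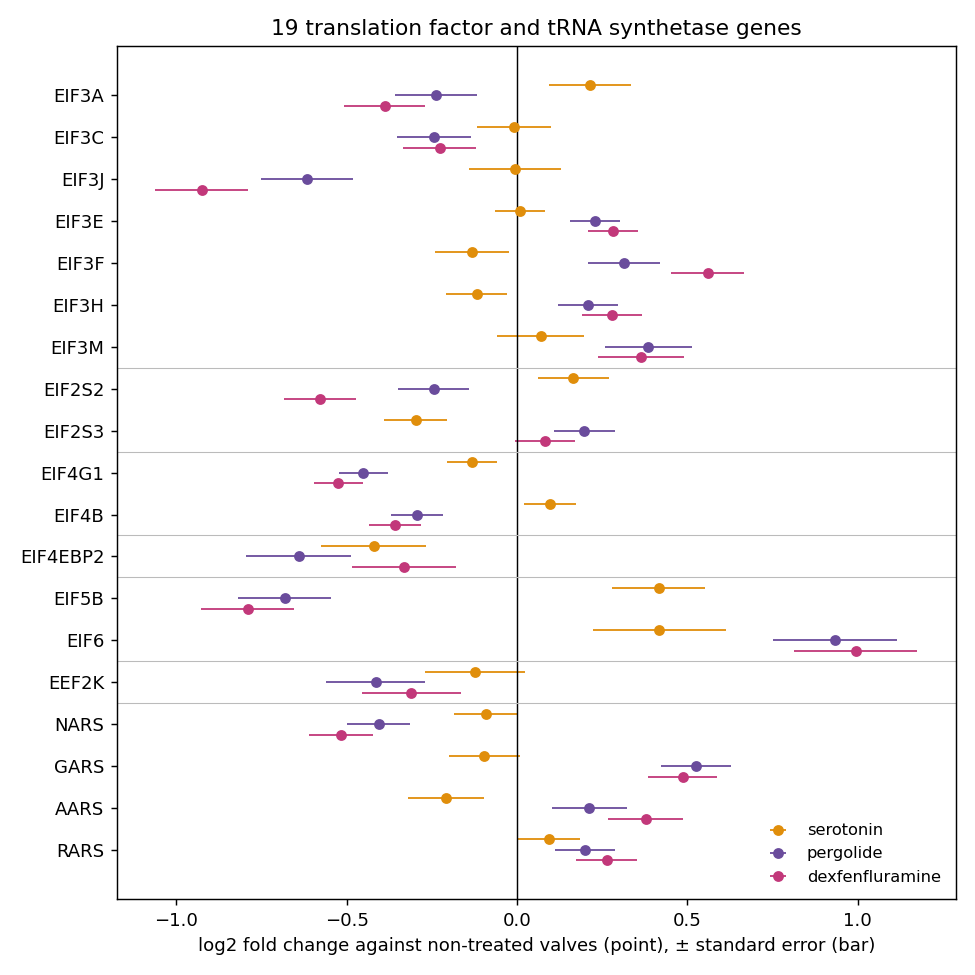
Log2 fold change of each of the 19 genes against the non-treated valves on the x axis (points), with its standard error (bars), for serotonin (orange), pergolide (purple) and dexfenfluramine (pink), 5 valves per group, after TMM correction. The dexfenfluramine points run from -0.93 for EIF3J to 0.99 for EIF6, the pergolide points from -0.68 for EIF5B to 0.93 for EIF6 and the serotonin points from -0.42 to 0.42, and EIF3A and EIF3C change sign with the drugs when surrogate variables are fitted.

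In edgeR's quasi-likelihood fit, 12 of the 19 passed a Benjamini-Hochberg adjusted p of 0.05 with pergolide, where 24.8% of all genes tested did, and 15 passed with dexfenfluramine, against 28.9% of all genes. With pergolide 5 of them were higher (12.1% of all genes) and 7 lower (12.7%), and with dexfenfluramine 8 were higher (13.5%) and 7 lower (15.4%). None passed with serotonin, where 1.19% of all genes did (1.04% higher and 0.15% lower). Those 103 genes became 0 to 257 when 1 valve was left out (0 without non-treated replicate 2 or 5 or serotonin replicate 1, 257 without non-treated replicate 3) and 1 with the replicate number as a block. With that treatment 4 of the 19 had an unadjusted p under 0.05, as had 1372 of the 8683 genes, and DESeq2 and limma-voom called 0 of them. The study itself looked for unwanted variation with svaseq and RUVr before its limma-voom test, whereas the edgeR fit here has no such variables. With surrogate variables fitted by svaseq in limma-voom, the counts became 5 with pergolide (2 higher, 3 lower) and 6 with dexfenfluramine (3 higher, 3 lower). Of the 8683 genes, 1156 (543 higher, 613 lower) and 987 (452 and 535) then passed. The 5 higher genes with pergolide became 2 without non-treated replicate 5, without pergolide replicate 4 or with only the 2 groups compared, and 3 without non-treated replicate 1 or 3 or pergolide replicate 2. The 8 higher genes with dexfenfluramine became 5 without non-treated replicate 1. Nothing is read from these counts, since the genes were listed for this contrast. Those that passed with pergolide were EIF3E, EIF3F, EIF3M, EIF6 and GARS on the higher side and EIF3J, EIF4B, EIF4G1, EIF4EBP2, EIF5B, EEF2K and NARS on the lower side. With dexfenfluramine they were EIF3E, EIF3F, EIF3H, EIF3M, EIF6, AARS, GARS and RARS on the higher side and EIF2S2, EIF3A, EIF3J, EIF4B, EIF4G1, EIF5B and NARS on the lower side. EIF3C and EIF2S3 passed with none of the treatments.

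The balance of higher and lower genes depended on the scaling. With library totals in place of the TMM-corrected sizes, a setting added after the data had been seen, the median log2 difference of all genes became 0.46 with pergolide, in place of 0.02, and 0.70 with dexfenfluramine, in place of 0.03. Calls over all genes then became 2288 higher and 87 lower with pergolide, in place of 1052 and 1105, and 4983 higher and 118 lower with dexfenfluramine, in place of 1175 and 1335. Of the 19 genes, 9 were then called higher and 0 lower with pergolide, and 10 higher and 0 lower with dexfenfluramine. On that scale 4 of the 10 lower genes still lay below the non-treated level with pergolide (EIF3J, EIF4EBP2, EIF4G1 and EIF5B) and 2 with dexfenfluramine (EIF3J and EIF5B). Measured from the shifted median, each of the 19 kept its direction with both drugs. The directions given below are of this kind, relative to the bulk of the genes.

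EIF3J (ENSOCUG00000005376) encodes a loosely bound subunit of eIF3 that sits in the decoding region of the small ribosomal subunit. Its level in the non-treated valves, in the order of replicates 1 to 5, was 53.0, 56.9, 51.3, 65.9 and 52.9 CPM. With pergolide it was 40.2, 37.4, 35.8, 38.2 and 30.8 CPM, and with dexfenfluramine 27.8, 29.5, 25.6, 31.1 and 33.2 CPM. The 10 valves of the drug groups thus all lay below the lowest non-treated valve. The log2 difference was -0.62 ± 0.13 (SE) with pergolide and -0.93 ± 0.14 with dexfenfluramine. With serotonin the level was 57.8, 80.7, 42.4, 47.5 and 50.6 CPM, spanning values below and above the range of the non-treated valves.

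EIF3E (ENSOCUG00000008050), another eIF3 subunit, differed the other way. The non-treated valves held 178, 188, 173, 185 and 166 CPM, and the serotonin valves 180.3, 168, 172, 184 and 191 CPM. Pergolide valves held 194, 207, 207, 232 and 203 CPM, and dexfenfluramine valves 214, 195, 233, 239 and 200.4 CPM. Each drug valve lay above the highest non-treated valve, by a small margin at the lowest of them. The difference on the log2 scale was 0.23 ± 0.07 with pergolide and 0.28 ± 0.07 with dexfenfluramine, and 0.01 ± 0.07 with serotonin.

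EIF3F (ENSOCUG00000004225), which pairs with EIF3H in the structure of eIF3, was at 46.2, 64.8, 50.7, 50.3 and 53.6 CPM without treatment and at 46.1, 45.6, 54.4, 49.9 and 46.6 CPM with serotonin. With dexfenfluramine it was at 74.0, 74.8, 77.6, 90.0 and 75.5 CPM, clear of the non-treated range. The pergolide valves, at 52.5, 61.8, 63.0, 77.2 and 75.8 CPM, overlapped it. On the log2 scale the difference was 0.31 ± 0.11 with pergolide and 0.56 ± 0.11 with dexfenfluramine. EIF3F lost its pass with pergolide when any of 6 valves was left out (non-treated 1, 3, 4 or 5, pergolide 4 or 5), with differences of 0.25 to 0.39 over the 10 such fits, and kept it with dexfenfluramine in each.

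The other 4 subunits overlapped between treated and non-treated valves. EIF3H (ENSOCUG00000007534) ranged from 124 to 156 CPM without treatment, from 148 to 186 with pergolide and from 152 to 193 with dexfenfluramine, with log2 differences of 0.21 ± 0.09 and 0.28 ± 0.09. EIF3M (ENSOCUG00000004483), a further subunit, ranged from 131 to 193 CPM without treatment, from 175 to 252 with pergolide and from 179.9 to 245 with dexfenfluramine (0.39 ± 0.13 and 0.36 ± 0.13). Its pass was lost without any of 5 valves with pergolide (0.31 to 0.45 over the 10 fits) and without any of 6 with dexfenfluramine (0.29 to 0.42), among them non-treated replicates 3 and 5 in both. EIF3A (ENSOCUG00000004996), the largest subunit of the complex, was lower by value at 293 to 359.6 CPM with pergolide and 258 to 339 with dexfenfluramine, against 315 to 470.0 without treatment, with log2 differences of -0.24 ± 0.12 and -0.39 ± 0.12 that became 0.11 and 0.02 once surrogate variables were fitted. EIF3C (ENSOCUG00000022489), another large subunit, was at 136 to 162 and 132 to 174 CPM against 136 to 221, with log2 differences of -0.24 ± 0.11 and -0.23 ± 0.11 that became 0.09 and 0.16 in that fit.

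A ratio of 2 genes' counts within a valve needs no scaling, although its size also depends on the lengths of both genes, so that only its change between valves is informative. The pairs were picked after the values were seen, among genes listed for differing in these valves, so that the ratios are a description. The ratio of EIF3E to EIF3J reads was 3.2 ± 0.24 (SD, n = 5) in the non-treated valves and 3.38 ± 0.81 with serotonin. It was 5.76 ± 0.66 with pergolide and 7.44 ± 1.18 with dexfenfluramine. The lowest drug valve, at 4.83, stood above the highest non-treated valve, at 3.38, and above the highest serotonin valve, at 4.06. EIF3F to EIF3A was 0.145 ± 0.033 without treatment, 0.114 ± 0.025 with serotonin, 0.209 ± 0.047 with pergolide and 0.275 ± 0.034 with dexfenfluramine. Here the pergolide valves, 0.157 to 0.259, overlapped the non-treated valves, 0.0982 to 0.180, and the dexfenfluramine valves, 0.222 to 0.312, did not.

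**Figure D2:**
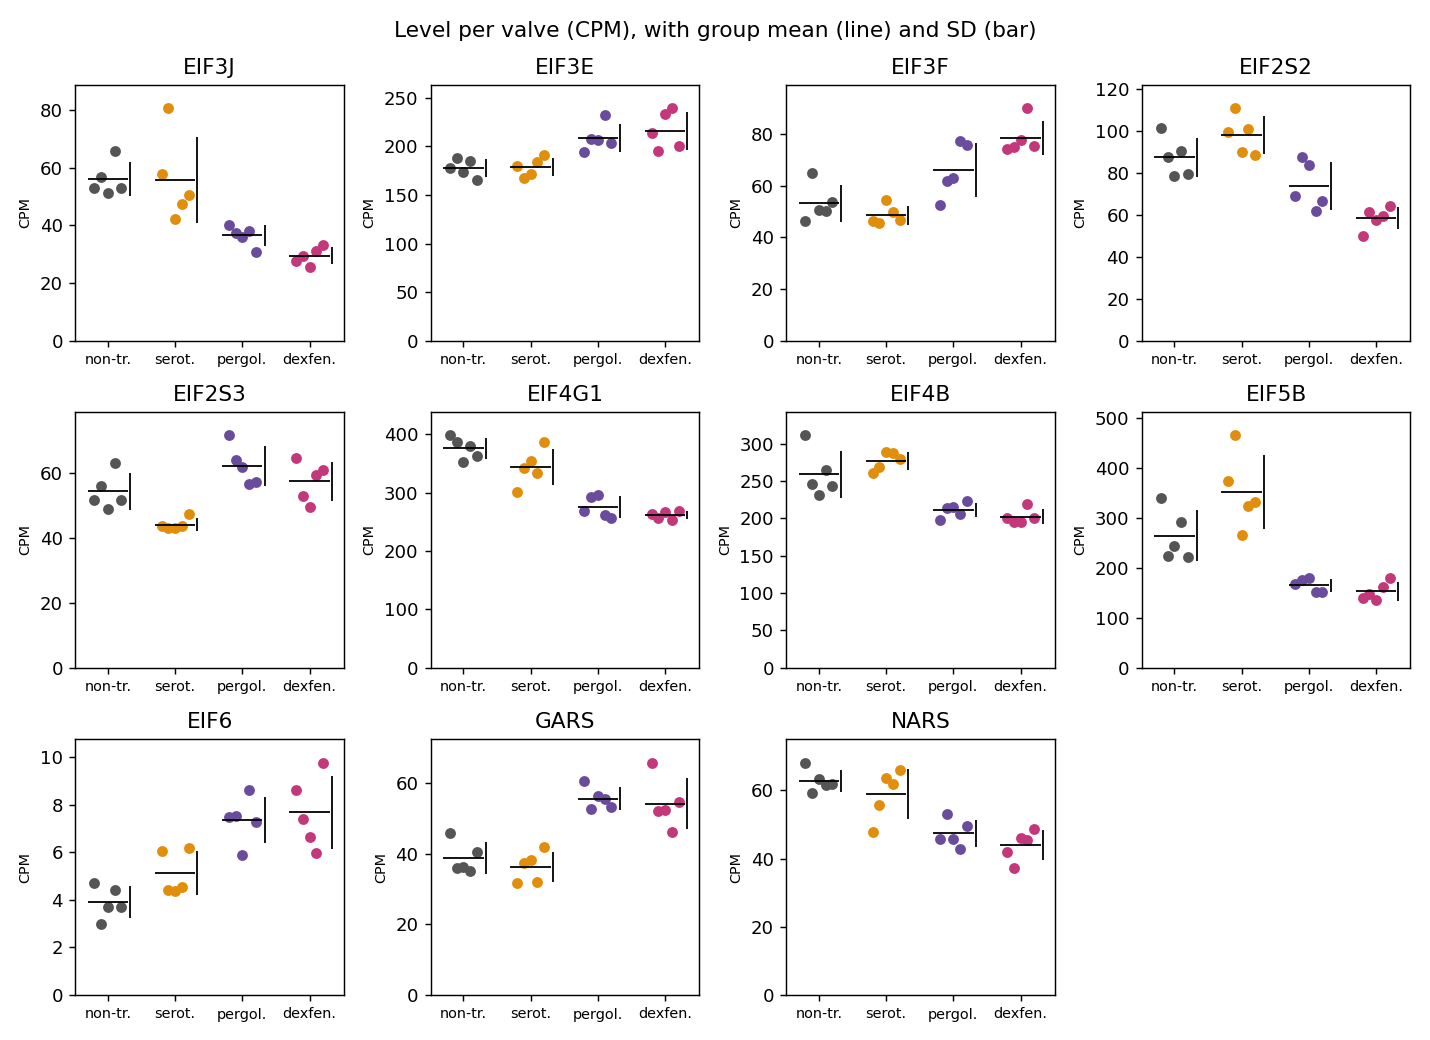
Level in CPM (y axis, starting at 0) in each of the 20 valves for the 11 genes in which at least 1 treatment group lay wholly outside the non-treated range, with points ordered by replicate within a group, lines at the mean and bars of 1 SD (n = 5). EIF3J, EIF4G1, EIF4B, EIF5B and NARS lie lower and EIF3E, EIF6 and GARS higher in all 10 drug valves than in the non-treated valves, and EIF2S3 is set apart in the serotonin valves, at 43.0 to 47.5 CPM.

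The 2 subunits of eIF2 differed from each other. EIF2S2 (ENSOCUG00000000481) encodes the beta subunit, which contacts the factors that control GTP hydrolysis. It was at 101, 87.5, 78.5, 90.3 and 79.6 CPM in the non-treated valves and at 99.5, 111, 90.0, 101 and 88.5 CPM with serotonin. With pergolide it was at 68.8, 87.6, 83.9, 61.7 and 66.5 CPM, within which 2 valves lay inside the non-treated range. With dexfenfluramine it was at 49.9, 61.2, 57.4, 59.3 and 64.3 CPM, all below the lowest non-treated valve. This gave a log2 difference of -0.24 ± 0.10 with pergolide, -0.58 ± 0.10 with dexfenfluramine and 0.17 ± 0.10 with serotonin.

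EIF2S3 (ENSOCUG00000006592), the gamma subunit that binds GTP and the initiator tRNA, was the 1 gene of the 19 for which the serotonin valves stood apart from the non-treated valves. They held 43.6, 43.0, 43.0, 43.7 and 47.5 CPM, against 51.6, 56.1, 49.0, 63.2 and 51.8 CPM without treatment, a log2 difference of -0.30 ± 0.09. The pergolide valves held 71.6, 63.9, 61.7, 56.6 and 57.3 CPM, and the dexfenfluramine valves 64.5, 52.9, 49.7, 59.3 and 61.1 CPM. Both overlapped the non-treated range, with log2 differences of 0.20 ± 0.09 and 0.08 ± 0.09. Over all genes tested, 2.05% were apart upward and 0.61% downward between serotonin and non-treated valves. The study had listed EIF2S3 for serotonin as well as for pergolide, so that nothing is read from its separation.

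EIF4G1 (ENSOCUG00000006110) encodes the large scaffold of eIF4F, to which the cap-binding protein, the helicase and eIF3 attach. Its level was 398, 387, 353, 379 and 364 CPM without treatment and 301, 342, 354, 334 and 386 CPM with serotonin. With pergolide it was 268, 293, 297, 261 and 257 CPM, and with dexfenfluramine 264, 256, 266, 253 and 268 CPM. The drug valves lay below both other groups without overlap, and the dexfenfluramine valves were the closest together, with 262 ± 6.59 CPM (SD). The log2 difference was -0.45 ± 0.07 with pergolide and -0.52 ± 0.07 with dexfenfluramine, against -0.13 ± 0.07 with serotonin.

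EIF4B (ENSOCUG00000013484), which stimulates the helicase eIF4A, was at 311, 246, 231, 265 and 243 CPM in the non-treated valves and at 260.4, 269, 289, 287 and 279 CPM with serotonin. It was at 198, 214, 215, 206 and 223 CPM with pergolide and at 200.1, 195, 195, 219 and 201 CPM with dexfenfluramine. Again the drug valves did not reach the lowest non-treated valve. The difference on the log2 scale was -0.29 ± 0.08 and -0.36 ± 0.08 with the drugs and 0.10 ± 0.08 with serotonin.

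EIF4EBP2 (ENSOCUG00000003475), the inhibitor of eIF4E, ranged widely without treatment, from 168 to 302 CPM. It ranged from 149.7 to 224 CPM with serotonin, from 105 to 169.7 with pergolide and from 169 to 209 with dexfenfluramine. Its value was lower in all 3 treatments, with log2 differences of -0.42 ± 0.15, -0.64 ± 0.15 and -0.33 ± 0.15. A single pergolide valve at 169.7 CPM reached the lowest non-treated valve. Among the 3 genes of cap recognition and its inhibitor, this was the one whose pergolide value lay below its dexfenfluramine value.

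EIF5B (ENSOCUG00000021154), the GTPase that joins the ribosomal subunits, differed most between treatments. The non-treated valves held 340.2, 224, 245, 292 and 222 CPM. The serotonin valves held 375, 466, 267, 325 and 332 CPM, a log2 difference of 0.42 ± 0.14 with overlap. Pergolide valves held 167, 175, 179, 152 and 151 CPM and dexfenfluramine valves 139, 147, 135, 163 and 180.5 CPM, all below the non-treated and the serotonin valves. On the log2 scale the difference was -0.68 ± 0.14 with pergolide and -0.79 ± 0.14 with dexfenfluramine. EIF5B was the 1 member that the study listed for both drugs and serotonin.

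EIF6 (ENSOCUG00000010588), which keeps the large ribosomal subunit from joining too early, was measured with few reads, 11 to 61 per valve, where the other members had 104 to 2117. It was at 4.69, 2.98, 3.69, 4.41 and 3.68 CPM without treatment and at 6.06, 4.43, 4.38, 4.56 and 6.18 CPM with serotonin. It was at 7.47, 7.52, 5.9, 8.62 and 7.29 CPM with pergolide and at 8.61, 7.41, 6.66, 5.96 and 9.78 CPM with dexfenfluramine. The drug valves were all above the highest non-treated valve, while the serotonin valves lay between and overlapped both. The log2 differences were 0.93 ± 0.18 with pergolide, 0.99 ± 0.18 with dexfenfluramine and 0.42 ± 0.20 with serotonin, the largest standard errors among the 19.

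EEF2K (ENSOCUG00000008067), the kinase that holds back elongation, was at 27.4 to 47.7 CPM without treatment, 33.3 to 39.0 with serotonin, 24.4 to 34.2 with pergolide and 26.9 to 41.0 with dexfenfluramine. The non-treated valves alone covered most of that span, non-treated replicate 3 being the lowest of them. This gave a log2 difference of -0.41 ± 0.15 with pergolide and -0.31 ± 0.15 with dexfenfluramine. It passed with pergolide in 4 of the 10 leave-one-out fits, with differences of -0.53 to -0.35, and was lost without non-treated 1, 2 or 5 or pergolide 1, 4 or 5.

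Among the synthetases, GARS and NARS went in opposite directions. GARS (ENSOCUG00000005295) was at 45.8, 36.0, 36.3, 35.0 and 40.5 CPM without treatment and at 31.7, 37.3, 38.3, 31.9 and 41.9 CPM with serotonin. It was at 60.5, 52.6, 56.3, 55.6 and 53.2 CPM with pergolide and at 65.8, 52.0, 52.4, 46.0 and 54.7 CPM with dexfenfluramine. No drug valve fell within the range of the non-treated or serotonin valves, although dexfenfluramine replicate 4, at 46.0 CPM, came close to non-treated replicate 1, at 45.8 CPM. The log2 difference was 0.53 ± 0.10 with pergolide and 0.49 ± 0.10 with dexfenfluramine, and -0.10 ± 0.11 with serotonin.

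NARS (ENSOCUG00000003025) was at 68.2, 59.3, 63.2, 61.5 and 61.9 CPM in the non-treated valves and at 47.8, 55.7, 63.7, 61.9 and 66.0 CPM with serotonin. The pergolide valves held 45.6, 53.1, 45.7, 42.9 and 49.5 CPM and the dexfenfluramine valves 42.0, 37.2, 45.9, 45.5 and 48.7 CPM. They lay below the non-treated valves but reached into the range of the serotonin valves, of which replicate 1 was the lowest. The difference on the log2 scale was -0.41 ± 0.09 with pergolide, -0.52 ± 0.09 with dexfenfluramine and -0.09 ± 0.09 with serotonin. The ratio of GARS to NARS reads within a valve was 0.616 ± 0.046 (SD, n = 5) without treatment and 0.617 ± 0.063 with serotonin, against 1.18 ± 0.15 with pergolide and 1.25 ± 0.23 with dexfenfluramine. The lowest ratio in a drug valve was 0.990, and the highest in the other groups was 0.672.

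AARS and RARS were higher by value with the drugs, with overlap. AARS (ENSOCUG00000008872) ranged from 66.4 to 87.0 CPM without treatment, from 49.4 to 77.4 with serotonin, from 77.3 to 98.2 with pergolide and from 86.9 to 105 with dexfenfluramine. The lowest dexfenfluramine valve was thus just under the highest non-treated valve. Its log2 difference was 0.21 ± 0.11 with pergolide, 0.38 ± 0.11 with dexfenfluramine and -0.21 ± 0.11 with serotonin. RARS (ENSOCUG00000015698) ranged from 36.2 to 44.9 CPM without treatment, from 34.8 to 47.5 with serotonin, from 41.8 to 48.5 with pergolide and from 44.3 to 50.1 with dexfenfluramine, with log2 differences of 0.09 ± 0.09, 0.20 ± 0.09 and 0.26 ± 0.09. The pass of RARS with dexfenfluramine was kept in 4 of 10 leave-one-out fits (0.22 to 0.30) and lost without non-treated 1, 2 or 4 or dexfenfluramine 2, 4 or 5. AARS kept its pass in all 10.

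**Figure D3:**
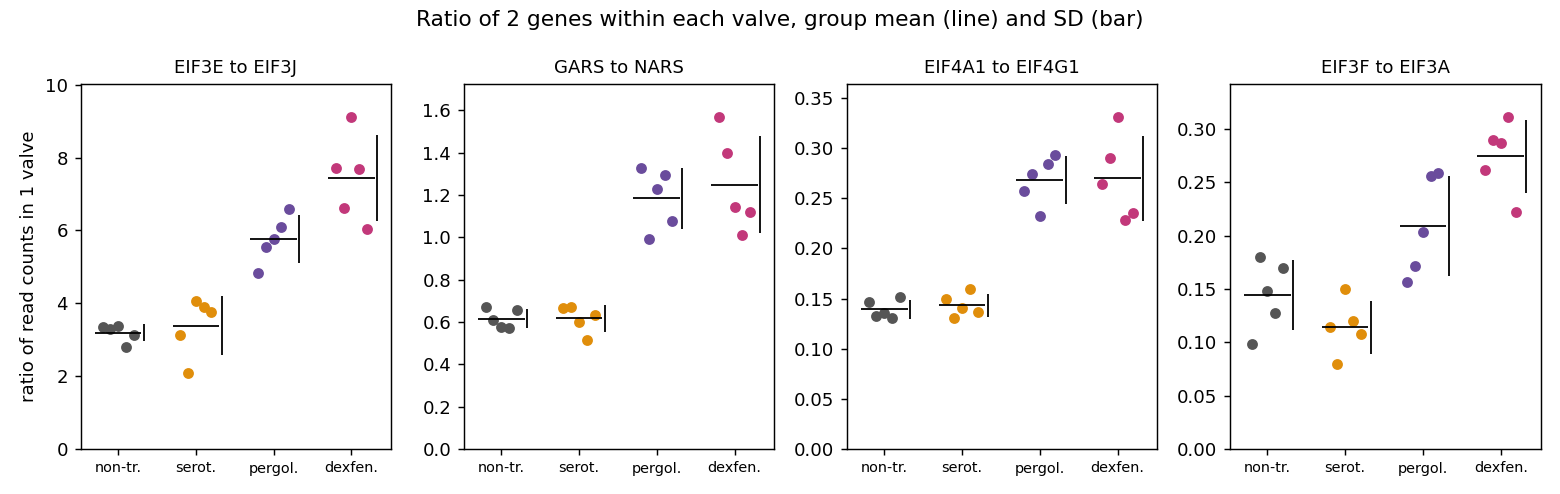
Ratio of the read counts of 2 genes within the same valve (y axis, starting at 0), for 4 pairs, with 1 point per valve, lines at the group mean and bars of 1 SD (n = 5). In the first 3 panels the pergolide and dexfenfluramine valves lie above the highest non-treated valve, for GARS to NARS at 0.990 or more against at most 0.672, and in the panel of EIF3F to EIF3A this holds for dexfenfluramine.

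With pergolide, 3 of the 19 genes stood wholly above the non-treated valves, where 7.95% of all genes tested did, and 5 wholly below, where 8.34% did. With dexfenfluramine 4 stood above, against 8.26% of all genes, and 6 below, against 8.71%. These counts too rest on the contrast that listed the genes. Passing the test did not require separation, as EIF3M and EIF4EBP2 show. In the fits that left out 1 valve at a time, 8 of the 12 genes that passed with pergolide and 11 of the 15 that passed with dexfenfluramine did so in each fit. Besides those named above, EIF3E lost its pass with pergolide without non-treated 1 or 5 or pergolide 2 or 4 (0.19 to 0.25). With dexfenfluramine EIF3A lost it without non-treated 1 or dexfenfluramine 2 (-0.46 to -0.31) and EIF3H without non-treated 1 or 4 or dexfenfluramine 3 (0.23 to 0.32).

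With serotonin the 19 genes ran from a log2 difference of -0.42 (EIF4EBP2) to 0.42 (EIF6, with EIF5B at the same rounded value), 8 higher and 11 lower by value. For 9 of the 19 the sign was the opposite of that with both drugs, namely EIF5B (0.42), EIF3A (0.22), EIF2S2 (0.17) and EIF4B (0.10) on the higher side and EIF2S3 (-0.30), AARS (-0.21), EIF3F (-0.13), EIF3H (-0.12) and GARS (-0.10) on the lower side. The remaining genes had the sign of the drugs. On the higher side these were EIF6, RARS, EIF3M and EIF3E, at 0.42, 0.09, 0.07 and 0.01, the last of which turned negative with DESeq2 and its size factors. On the lower side they were EIF4EBP2 (-0.42), EIF4G1 (-0.13), EEF2K (-0.12) and NARS (-0.09), with EIF3C and EIF3J both at -0.01, of which EIF3C turned positive on library totals relative to the median. No member passed the adjusted threshold with serotonin, and without non-treated replicate 1 a single member did. The comparisons of the 3 treatments use the same 5 non-treated valves.

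Setting the drugs against serotonin, which the study's list did not use as a contrast but which takes in the same treated valves, 14 of the 19 passed with pergolide (27.5% of all genes tested) and 14 with dexfenfluramine (30.3%). Each time 7 were higher, against 12.4% and 13.9% of all genes, and 7 lower, against 15.1% and 16.4%. With surrogate variables 5 (2 higher, 3 lower) and 9 (4 higher, 5 lower) passed. Of the 8683 genes, 1506 (602 higher, 904 lower) and 1381 (546 and 835) then did. On library totals the even split was lost. There 6 were called higher and 1 lower with pergolide, where 1360 and 232 of all genes were, and 9 higher and 1 lower with dexfenfluramine, where 3649 and 204 were. EIF5B had the lowest value, at 0.47 times the serotonin level with pergolide and 0.43 times with dexfenfluramine, log2 differences of -1.10 ± 0.14 and -1.21 ± 0.14. The largest upward differences were 0.62 ± 0.10 for GARS with pergolide, 1.54-fold, and 0.69 ± 0.11 for EIF3F with dexfenfluramine, 1.62-fold. EIF2S2 was lower without overlap in both (-0.41 ± 0.10 and -0.74 ± 0.10), and EIF2S3 higher without overlap in both (0.49 ± 0.09 and 0.38 ± 0.09). In all, 4 genes stood wholly above serotonin with pergolide (8.38% of all genes) and 6 wholly below (11.9%), and 6 above (8.75%) and 6 below (12.2%) with dexfenfluramine.

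Between the drugs, no gene passed edgeR's test, among the 19 or among the 8683 (0%). An unadjusted p under 0.05 was reached by 613 genes, and DESeq2 called 4 genes. Over the 19, the log2 difference of dexfenfluramine from pergolide ran from -0.33 ± 0.10 for EIF2S2 to 0.31 ± 0.15 for EIF4EBP2. EIF3J was lower by 0.31 ± 0.14 and EIF3F higher by 0.25 ± 0.10 on this scale. An unadjusted p under 0.05 was found for 3 of the 19. In no gene did the valves of the drugs separate, where 0.887% of all genes were wholly higher and 0.541% wholly lower with dexfenfluramine.

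Single valves shaped several groups, as the map of all valves shows. Non-treated replicate 1 was the highest of its group for 7 of the 10 genes that were lower with the drugs, and non-treated replicate 3 the lowest for 6 of them. Serotonin replicate 2 was the highest of its group for 5 of these 10, with 80.7 CPM of EIF3J and 466 CPM of EIF5B, and the lowest for 5 of the 9 genes that were higher with the drugs. Pergolide replicate 4 was the highest for 6 of those 9. Among the 10 lower genes, serotonin replicate 3 and pergolide replicate 5 were each the lowest of their group for 5. Pergolide replicate 2 was the highest for 5 of them. Dexfenfluramine replicate 5 was the highest of its group for 6 of the 10 lower genes.

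**Figure D4:**
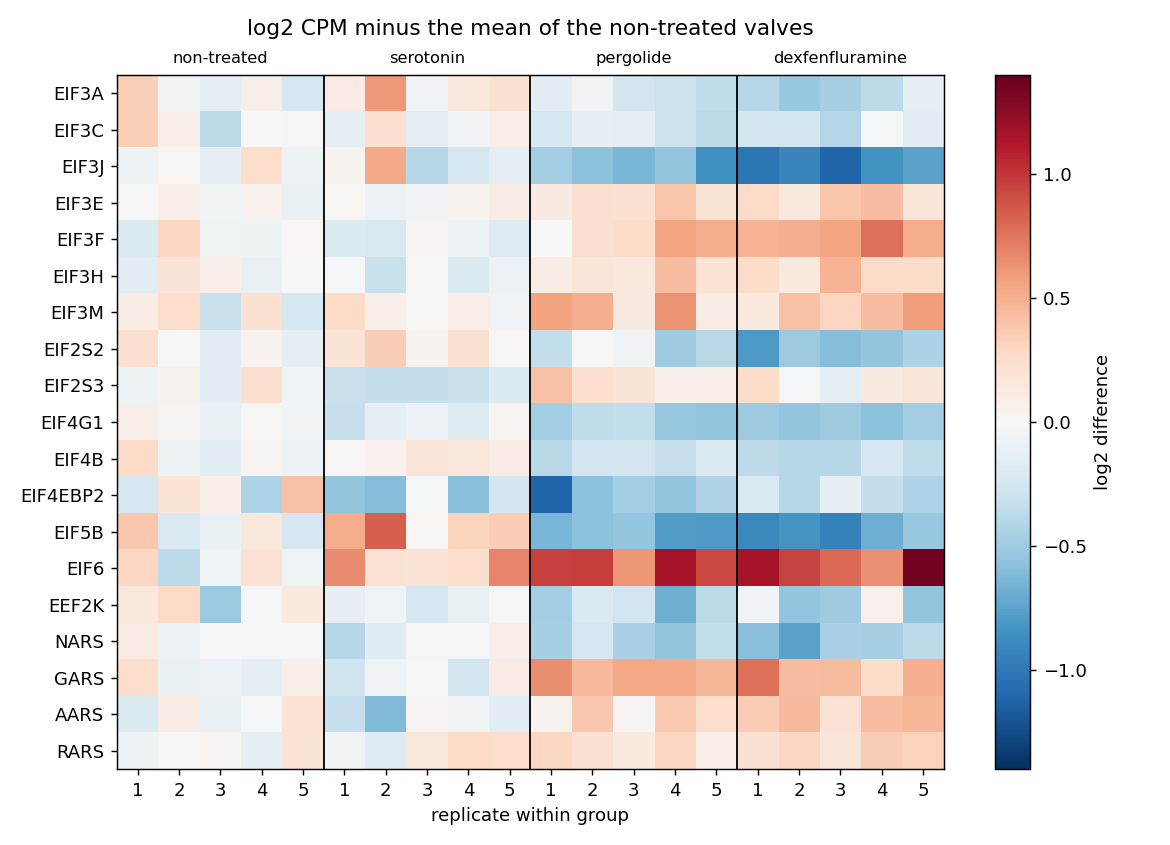
Log2 CPM of each of the 19 genes (rows, by role) in each of the 20 valves (columns, by group and replicate) minus the mean of the 5 non-treated valves, from blue (lower) to red (higher). The dexfenfluramine columns run from blue for EIF3J, at 0.53 times the non-treated level, to red for EIF6, at 1.99 times, and serotonin replicate 2 stands out in red for EIF5B (466 CPM), EIF3J (80.7 CPM) and EIF3A (570.0 CPM).

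A further 10 translation genes carried an identifier with a surplus zero in the study's list and could be matched once it was removed. They were EEF1A1 (ENSOCUG00000008481), EIF3K (ENSOCUG00000012564), EIF4A1 (ENSOCUG00000010375), EIF4E (ENSOCUG00000001456), EIF4ENIF1 (ENSOCUG00000004000), EIF4G2 (ENSOCUG00000013326), EIF5 (ENSOCUG00000021896), EIF5A (ENSOCUG00000015255), QARS and RARS2 (ENSOCUG00000004871), and they are not counted among the 19. Of these, 9 passed with pergolide (7 higher, 2 lower), beside 24.8% of all genes (12.1% higher, 12.7% lower). With dexfenfluramine 6 passed (4 higher, 2 lower), beside 28.9% of all genes (13.5% and 15.4%). None passed with serotonin, where 1.19% of all genes did. EIF4A1, the helicase of eIF4F, was at 47.9 to 58.4 CPM without treatment, 44.6 to 53.4 with serotonin, 68.9 to 80.3 with pergolide and 58.0 to 88.2 with dexfenfluramine, log2 differences of 0.49 and 0.43 with the drugs. Its cap-binding partner EIF4E was at 15.9 to 22.5, 15.5 to 20.5, 23.0 to 26.2 and 19.6 to 27.1 CPM in the same order (0.34 and 0.24). The helicase and the cap-binding protein were thus higher by value where the scaffold EIF4G1 was lower. The ratio of EIF4A1 to EIF4G1 reads was 0.139 ± 0.009 (SD, n = 5) without treatment, 0.143 ± 0.011 with serotonin, 0.268 ± 0.024 with pergolide and 0.270 ± 0.042 with dexfenfluramine, with at least 0.229 in each drug valve and at most 0.160 in the others.

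EIF4G2, a relative of EIF4G1 that does not bind eIF4E, was at 742 to 808 CPM without treatment, 696 to 777 with serotonin, 836 to 917 with pergolide and 798 to 888 with dexfenfluramine (0.19 and 0.10 with the drugs). EIF4ENIF1, which carries eIF4E into the nucleus, was at 37.9 to 55.2, 38.8 to 45.3, 30.4 to 40.3 and 30.3 to 40.1 CPM (-0.32 and -0.36). EIF3K, a small eIF3 subunit, was at 64.0 to 83.5, 65.5 to 79.5, 55.7 to 64.4 and 50.3 to 68.0 CPM (-0.33 and -0.28). EIF5, which makes eIF2 hydrolyse its GTP at the start codon, was at 48.2 to 55.9, 49.2 to 59.2, 54.9 to 72.3 and 53.1 to 59.9 CPM (0.28 and 0.13). EIF5A, which helps the ribosome through difficult stretches of peptide, was at 36.0 to 42.9, 29.8 to 41.6, 51.4 to 61.9 and 47.0 to 60.2 CPM (0.50 and 0.46), with both drugs clear of the other groups.

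EEF1A1, which brings the loaded tRNA to the ribosome, was at 1597 to 2102 CPM without treatment, 1527 to 2091 with serotonin, 2287 to 2837 with pergolide and 2340 to 3042 with dexfenfluramine (0.51 and 0.59). It has many near-identical copies in mammalian genomes, and how reads with several matches were counted is not given in the sources used here, so that its level is uncertain. QARS (ENSOCUG00000005082), the glutaminyl-tRNA synthetase, was at 43.2 to 56.1, 37.5 to 49.1, 61.6 to 78.5 and 63.0 to 69.7 CPM (0.49 and 0.47), on the side of GARS. RARS2, the mitochondrial arginine enzyme, was at 21.6 to 29.8, 16.8 to 28.6, 29.6 to 32.2 and 28.2 to 34.7 CPM (0.29 and 0.26), the 1 of these 10 that passed with none of the treatments.

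The wider list of translation genes held 19 further genes with a symbol, these 10 among them, and all were tested. Symbols came from the study's list alone, so that each of these genes had been listed for at least 1 treatment. Of the 19, 13 passed with pergolide (9 higher, 4 lower), where 24.8% of all genes did (12.1% and 12.7%). With dexfenfluramine 12 passed (6 higher, 6 lower), against 28.9% of all genes (13.5% and 15.4%), and with serotonin 1, against 1.19%. Their median log2 difference was 0.19, 0.10 and -0.09 in that order. MCTS1, which re-starts translation and recycles ribosomes, had the largest upward values with both drugs, 0.91 ± 0.22 with pergolide and 0.70 ± 0.23 with dexfenfluramine. By the larger of the values with either drug, it was followed by EEF1A1, by ETF1, which recognises stop codons (0.57 ± 0.10 and 0.45 ± 0.10), and by EIF5A. By the same measure the largest downward value was that of EEF1B2, the exchange factor of eEF1A, at -0.75 ± 0.14 with pergolide and -0.68 ± 0.14 with dexfenfluramine but 0.79 ± 0.14 with serotonin, the 1 gene of the list that passed there. No gene at all passed with serotonin without non-treated replicate 2 or 5 or serotonin replicate 1, or with only the 2 groups compared. Next came GFM1 and TUFM, elongation factors of mitochondria, at -0.71 ± 0.20 and -0.61 ± 0.19 with dexfenfluramine and -0.51 ± 0.20 and -0.31 ± 0.19 with pergolide, and then, among genes that passed with a drug, EIF4ENIF1. All 3 mitochondrial factors with a symbol, MTIF2 among them, had values below 0 with each treatment, 2 passing with dexfenfluramine and none with pergolide or serotonin.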

How the data were processed

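RNA of 20 tricuspid valves, 5 per group, was measured. The deposited values are whole-number read counts per Ensembl gene, which the authors made with stranded libraries, alignment to oryCun2 with TopHat 2.1.1 and HTSeq in union mode. The annotation release and strand setting are not given in the sources used here. The authors' own fold changes and p-values were not used.

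Counts were normalised by TMM in edgeR 4.0.16 (R 4.3.3). Of 23669 genes, 8683 passed filterByExpr with the 4 groups, the 19 members among them, and were tested by edgeR's quasi-likelihood test in 1 fit of all 20 valves, with Benjamini-Hochberg adjustment and a threshold of 0.05. Standard errors were derived from the test, as the absolute log2 fold change divided by the square root of its F statistic. P-values set a group difference against the spread between rabbits within groups of 5, estimated over all 20 valves and moderated across genes. DESeq2 1.42.0, limma-voom (limma 3.58.1), svaseq (sva 3.50.0, 4 surrogate variables), no filter, only the groups compared, a replicate block, library totals and leaving out each valve were alternatives. The test was tried on simulated counts.

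Symbols came from the study's list, whose full identifiers named 3520 genes of the file. Shortened identifiers gave no symbol, which left out EIF4G3. The members and lists were chosen with earlier results of these data known. Every member was named, with each valve's value where a treatment group lay outside the non-treated range, and of the other translation genes the 4 largest rises and 4 largest falls that passed with a drug. Marker lists of erythroid cells, lymphocytes and chondrocytes had no gene with a symbol, and 3 of 6 smooth muscle markers summed to 243 to 644, 294 to 478, 363 to 447 and 119 to 490 CPM in non-treated, serotonin, pergolide and dexfenfluramine valves. DES made up most of that sum. In the same order MYH11 had means of 46.5, 45.9, 31.1 and 17.2 CPM, and TAGLN of 2.09, 1.92, 4.15 and 5.37 CPM. Counting error adds to the spread of EIF6, with its few reads.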

Additional observations from a re-analysis of the deposited data

Results flagged for a closer look

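In 5 of 76 tests of a group of 5 valves, a single valve lay farther from the others than Dixon's 95% limit allows, where chance flags about 1 group in 20. EIF2S3 was at 47.5 CPM in serotonin replicate 5, above 43.0 to 43.7 in the other serotonin valves. EIF3F was at 90.0 CPM in dexfenfluramine replicate 4, above 74.0 to 77.6 in the rest of that group. The same valve held 219 CPM of EIF4B, where the others held 195 to 201. EIF3H was at 186 CPM in pergolide replicate 4, above 148 to 158 in the others. EIF4EBP2 was at 105 CPM in pergolide replicate 1, below 153 to 169.7 in the others.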

How the results depend on the processing

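The number of members passing and the number of all genes passing kept within 1.5 times under DESeq2, DESeq2 size factors, limma-voom, no filter, only the 2 groups compared and the replicate block for pergolide and dexfenfluramine against non-treated or serotonin, although the members passing upward with pergolide went from 5 to 2 with only the 2 groups compared. With svaseq and limma-voom, genes passing fell to 1156 with pergolide and 987 with dexfenfluramine against non-treated, and to 1506 and 1381 against serotonin, and members passing to 5, 6, 5 and 9. With library totals, 5101 genes passed with dexfenfluramine, and against serotonin 1592 genes and 7 members with pergolide. For serotonin against non-treated, 103 genes became 234 with DESeq2, 53 with DESeq2 size factors, 2 with library totals, 48 with no filter, 0 with only the 2 groups and 1 with the replicate block. Leaving out 1 valve gave 0 to 257 genes (0 without non-treated 2 or 5 or serotonin 1, 257 without non-treated 3) and 0 to 1 members. Between the drugs, DESeq2 called 4 genes.

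Leaving out 1 valve gave 8 to 12 members with pergolide, 11 to 16 with dexfenfluramine, and 12 to 15 and 13 to 14 against serotonin. Some small log2 differences changed sign over these fits. With serotonin EIF3C ran from -0.0909 to 0.0786, EIF3E from -0.0203 to 0.0294, EIF3J from -0.17 to 0.0763 and EIF3M from -0.00423 to 0.13. Between the drugs EIF3C ran from -0.0383 to 0.0623, EIF3M from -0.0881 to 0.0400, EIF6 from -0.0469 to 0.14 and GARS from -0.12 to 0.0140. Other reversals with svaseq, beside those of EIF3A (0.11 and 0.0222) and EIF3C (0.0926 and 0.16), were EEF2K (0.12) and EIF3C (0.18) with serotonin, EIF4EBP2 between dexfenfluramine and serotonin (-0.18), and EIF3H (-0.02) and EIF3M (0.0596) between the drugs. With serotonin EIF3C was also 0.0106 with limma-voom and 0.0120 with library totals, relative to the median, and EIF3E was -0.00337 with DESeq2, -0.00531 with its size factors and -0.00716 with only the 2 groups. The cause of these changes was not tested.

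With the replicate number as a block, 1988 genes and 11 members passed with pergolide and 2365 and 15 with dexfenfluramine. The numbers do not pair the valves: deviations of same-numbered valves correlated at -0.022 on average, those of others at 0.005, and 5 of 20 valves correlated best with their own number. Depth limits EIF6 most.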
